A study of Mus musculus with 4 samples.

Results

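Oligodendrocyte precursors were taken from single-nucleus RNA profiles of the mouse hypothalamus by a strict rule on a few genes. A nucleus needed at least 500 detected genes and at most 5% of its unique molecular identifiers (UMIs, each standing for 1 captured RNA molecule) from mitochondrially encoded genes. It then needed a summed count of at least 2 UMIs over Pdgfra, Cspg4 and C1ql1, with at least 1 of them from Pdgfra. Nuclei with more than 2 UMIs of the neuronal RNA Snhg11, with more than 1 UMI of the fibroblast genes Dcn and Col1a2 together, or with any UMI of Enpp6, a gene of newly formed oligodendrocytes, were left out. The rule kept 602 nuclei of the 54422 that passed the limits on genes and mitochondrial UMIs, or 1.11%. The members were thus chosen by their measured counts of these genes, whose levels are given as a description and support nothing.

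The nuclei came from 4 libraries of hypothalamus of wild type C57BL/6J mice, conventionally colonised and labelled SPF. The ImP libraries, ImP 3 and ImP 4, came from mice given imidazole propionate, which gut bacteria make from histidine, at 350 µg per day. The vehicle libraries, vehicle 1 and vehicle 2, came from mice given sterile water with 1% DMSO, the solvent that the ImP mice received too. Both agents were delivered for 2 weeks by an osmotic minipump placed in the peritoneal cavity. The labels give neither the age of the mice nor whether a library held 1 animal. Each p-value below therefore measures spread among libraries, which may be technical.

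Oligodendrocyte precursors are the dividing glia of the adult brain from which myelinating oligodendrocytes form. They respond to platelet-derived growth factor through the receptor encoded by Pdgfra, carry the proteoglycan encoded by Cspg4 (NG2), and receive synaptic input from neurons through glutamate and GABA receptors. On commitment to differentiation they switch off Pdgfra, pass through a short stage marked by Gpr17, Bcas1 and Enpp6, and then switch on the myelin genes.

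The members numbered 182 in ImP 3, 147 in ImP 4, 142 in vehicle 1 and 131 in vehicle 2. Their median depth was 1896, 2071, 2501 and 2189 UMIs per nucleus in the same order, so both ImP libraries lay below both vehicle libraries. Summed over members, the libraries held 373348, 317402, 365224 and 303444 UMIs. Between 39 and 76 cell barcodes were shared by each pair of libraries, and none of them between members. ImP 4 stood apart from the other libraries by RNA of pituitary hormones, in the members as in other nuclei. Levels are given as CPM, a gene's UMIs scaled to the same total for the members of each library. In the members, the summed level of 9 pituitary genes was 206 CPM in ImP 3, 3759 CPM in ImP 4, 120.5 CPM in vehicle 1 and 105 CPM in vehicle 2. All 9 of these genes were detected in the members.

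The identity of the members was checked on 28 genes known for precursors that the rule did not use. All 28 were higher in the members than in all other nuclei, 24 of them more than 3-fold, with a median ratio of 7.14. Among all 3913 genes at 50 CPM or more in the members, 8.25% were more than 3-fold higher. For 20 of the 28 genes the members had the highest level of the 5 classes compared. These were the members, nuclei with 2 or more UMIs of Enpp6 (newly formed oligodendrocyte-like, 117 nuclei), and nuclei with 3 or more UMIs of Mog, Mag and Opalin (mature oligodendrocyte-like, 1566 nuclei). The last 2 classes were nuclei with 3 or more UMIs of Aqp4, Gja1 and Agt (astrocyte-like, 329 nuclei) and nuclei with 10 or more UMIs of Snhg11 (neuron-like, 36366 nuclei). A member held UMIs of a median of 18 of the 28 genes, 592 of the 602 members held at least 5, and 4 held fewer than 3, of which 3 were in ImP 3 and 1 in vehicle 1. Because the same nuclei's own RNA chose the members, the comparison with other nuclei carries no test. No doublet caller was run, and 58 members with signs of a possible doublet stayed in.

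The lineage transcription factors were among the clearest of these genes. Sox10, a factor needed throughout the oligodendrocyte lineage, was at 313 CPM in ImP 3, 340 CPM in ImP 4, 315 CPM in vehicle 1 and 307 CPM in vehicle 2, against 18.8 CPM in all other nuclei and 245 CPM in mature oligodendrocyte-like nuclei. Olig2, which specifies the lineage, was at 105 and 94.5 CPM in the ImP libraries and 93.1 and 52.7 CPM in the vehicle libraries, against 5.16 CPM in all other nuclei. Sox6, which holds precursors undifferentiated, was at 1446 and 1449 CPM in ImP and 1544 and 1822 CPM in vehicle, against 42.4 CPM in mature oligodendrocyte-like nuclei. The levels of Sox10 lay within a narrow band across the libraries. Sox6 was lower in both ImP libraries than in both vehicle libraries.

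**Figure D1:**
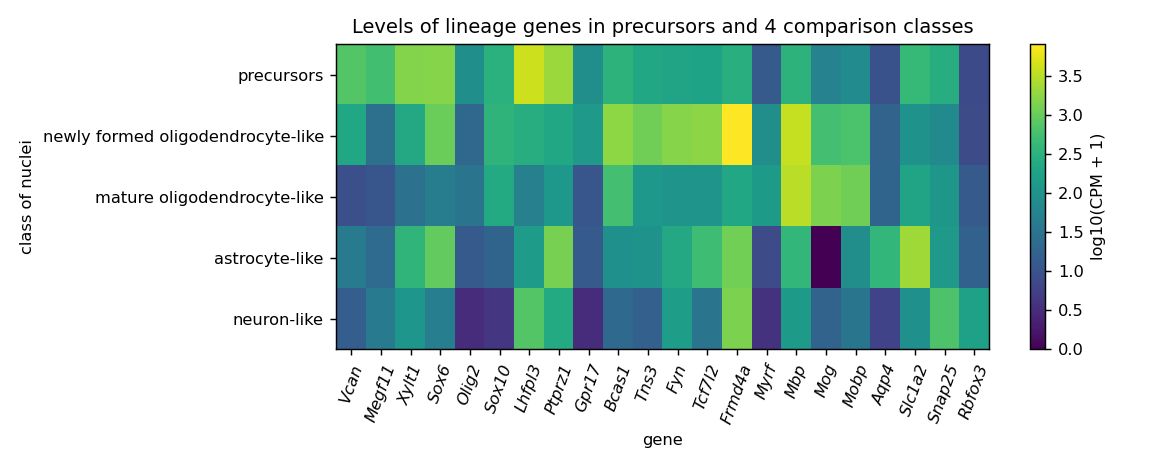
Heat map of the level of 22 genes (columns), as log10(CPM + 1), in the precursors and in 4 comparison classes of nuclei (rows), summed over the 4 libraries. The precursors hold the highest level of Vcan, Megf11, Xylt1, Lhfpl3 and Ptprz1, while Frmd4a, Fyn and Bcas1 are highest in newly formed oligodendrocyte-like nuclei and Mog and Mobp in mature ones. Mog and Aqp4 took part in choosing the comparison classes.

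The 25 genes with the largest ratio of member to other nuclei, at 50 CPM or more and with the rule genes left out, were between 17.1-fold and 49.4-fold higher. In no single library was the ratio of any of them under 13.7, and 22 of them were at their highest in the members among the 5 classes. Rlbp1, which encodes a retinaldehyde-binding protein, led with 49.4-fold, at 53.6 CPM in ImP 3, 59.9 CPM in ImP 4, 35.6 CPM in vehicle 1 and 89.0 CPM in vehicle 2 against 1.18 CPM in all other nuclei. Next came Vxn (46.9-fold), Susd5 (43.0-fold) and Neu4, a sialidase (42.6-fold). Cav1, the caveolae protein caveolin 1 (40.8-fold), the retinal guanylate cyclase gene Gucy2f (39.1-fold), Emid1 (35.7-fold) and Afap1l2 (34.7-fold) followed. Etv4, an ETS transcription factor, stood at 28.9-fold, with 166 and 107 CPM in ImP and 203 and 148 CPM in vehicle. The integrin gene Itga9 (31.3-fold), the guidance genes Sema3d (22.7-fold) and Sema5b (17.1-fold), and the matrix genes Vcan (28.4-fold), Col9a1 (26.2-fold) and Matn4 (20.5-fold) were also in this group. The other 10 were Inava, C430049B03Rik, A930009A15Rik, Galnt3, Shc4, Arhgap31, Gm2164, Rgcc, Gpr17 and 6330576A10Rik, the last at 18.0-fold. Of the 25, 4 also belong to the 28 identity genes.

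Of 20 proteoglycan and matrix genes, all were detected in the members, 11 were more than 3-fold higher than in all other nuclei, and 11 were highest in the members among the 5 classes, beside the 8.25% over 3-fold among all genes at 50 CPM or more. The summed level of the list was 12485 CPM in the members and 11296 CPM in astrocyte-like nuclei. Vcan, the large chondroitin sulfate proteoglycan versican, was at 753 and 784 CPM in ImP and 726 and 682 CPM in vehicle, against 25.9 CPM elsewhere. Xylt1, which starts the glycosaminoglycan chains of such proteoglycans, was at 1527 and 1232 CPM in ImP and 1714 and 1644 CPM in vehicle, against 136 CPM elsewhere. The sulfotransferase gene Chst11 was 7.20-fold and the sulfatase gene Sulf2 7.17-fold higher than elsewhere. Gpc5, a glypican, was 3.46-fold higher than elsewhere but reached 7445 CPM in astrocyte-like nuclei against 2574 to 3160 CPM in the members of the 4 libraries.

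Receptors were less exclusive to the members. Of 32 growth factor and guidance receptor genes, 5 were more than 3-fold higher in the members than elsewhere, and Met was at 0 UMIs in all 4 libraries. Notch1 was 9.82-fold higher, Erbb3 7.10-fold, and Lifr, the receptor subunit for leukemia inhibitory factor, 4.88-fold. Erbb4, a neuregulin receptor, was at 2636 and 2656 CPM in ImP and 2817 and 2959 CPM in vehicle, against 1341 CPM elsewhere. Of 31 glutamate and GABA receptor genes, none was more than 3-fold higher, and Grin3a, an NMDA receptor subunit, came closest at 2.94-fold, with 549 and 416 CPM in ImP and 449 and 540 CPM in vehicle. The AMPA receptor gene Gria4 was at 1077 and 1046 CPM in ImP and 1177 and 1279 CPM in vehicle, close to the 1072 CPM of all other nuclei. The potassium channel gene Kcnd2 was 2.08-fold and Kcnj16 8.06-fold higher than elsewhere. For histamine, whose precursor histidine also gives rise to ImP, the receptor gene Hrh1 was at 56.2 and 31.5 CPM in ImP and 46.5 and 36.2 CPM in vehicle, while Hrh2 and Hrh4 had no UMI in any member.

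Genes of commitment and of myelin showed where the members stood in the lineage. The summed level of 18 genes of committed precursors was 2049, 2013, 2136 and 2162 CPM in ImP 3, ImP 4, vehicle 1 and vehicle 2, against 20087 CPM in newly formed oligodendrocyte-like nuclei. None of the 18 was highest in the members. Bcas1, Tns3 and Itpr2 were 6.35-fold, 7.54-fold and 9.93-fold higher in the members than in all other nuclei, but each was higher still in newly formed oligodendrocyte-like nuclei, at 1790, 1149 and 597 CPM. Frmd4a was at 268 and 277 CPM in ImP and 285 and 323 CPM in vehicle, against 8133 CPM in newly formed oligodendrocyte-like nuclei. The myelin genes Mog (0.94-fold), Mobp (0.92-fold) and Mag (0.96-fold) were near their level in all other nuclei. Of the 20 myelin genes 3 were more than 3-fold higher in the members, namely the connexin gene Gjc3 (12.2-fold), the fatty acid hydroxylase gene Fa2h (4.31-fold) and the galactolipid enzyme gene Ugt8a (3.14-fold).

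Gpr17, the receptor of the stage just before differentiation, was found in 98 of the 602 members, or 16.3% (exact 95% Clopper-Pearson interval 13.4 to 19.5%). By library the share was 10.4% in ImP 3, 18.4% in ImP 4, 19.0% in vehicle 1 and 19.1% in vehicle 2. In neuron-like nuclei, which should lack the gene, 0.951% of nuclei held a UMI of it at a median depth of 3986 UMIs, against a median of 2100 UMIs in the members. In newly formed oligodendrocyte-like nuclei the share was 15.4% of 117 nuclei, close to that of the members. Every nucleus was then thinned to 1500 UMIs, with 132 shallower members left out. The share became 11.9% of 470 members, 9.38% of 96 newly formed oligodendrocyte-like nuclei and 0.403% of neuron-like nuclei. ImP 3 remained the lowest after thinning, at 8.76% against 13.2% in ImP 4, 13.8% in vehicle 1 and 12.6% in vehicle 2, and the exact intervals of all 4 libraries overlapped. All intervals of shares cover counting error only. The Gpr17-bearing members did not stand apart in Frmd4a, at 279 CPM against 289 CPM in the members without Gpr17, or in Bcas1, at 356 CPM against 330 CPM.

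Markers of other cell types were summed by list. The summed level of 15 neuronal markers, which include Snhg11 of the rule, was 4053, 4156, 4011 and 4142 CPM in ImP 3, ImP 4, vehicle 1 and vehicle 2, against 22619 CPM in neuron-like nuclei. The 12 astrocyte markers summed to 1168, 1141, 1103 and 1061 CPM, against 10101 CPM in astrocyte-like nuclei and 884 CPM in all other nuclei. The 12 markers of mature oligodendrocytes summed to 1318 and 1383 CPM in ImP and 934 and 949 CPM in vehicle, against 14707 CPM in mature oligodendrocyte-like nuclei and 1044 CPM in all other nuclei. Microglial markers (12 genes) summed to 236, 369, 192 and 208 CPM. The 10 endothelial markers summed to 50.9, 12.6, 13.7 and 3.30 CPM with 1 at 0, and the 10 mural markers to 16.1, 22.1, 30.1 and 13.2 CPM with 3 at 0. The 12 tanycyte and ependymal markers summed to 2515, 2517, 2692 and 2514 CPM, against 2548 CPM in all other nuclei. The 10 fibroblast markers, of which 1 was at 0, summed to 120 CPM in ImP 3, 34.7 CPM in ImP 4, 13.7 CPM in vehicle 1 and 3.30 CPM in vehicle 2, against 39.3 CPM in all other nuclei. Fibroblasts also express Pdgfra, and 12 members with 2 or more UMIs of these markers or with fewer than 5 identity genes lay in ImP 3 (6), ImP 4 (4) and vehicle 1 (2).

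Nuclei on either side of each threshold of the rule differed to unequal degrees. The 228 members with a marker sum of 2 UMIs had a summed identity level of 28962 CPM, close to the 30462 CPM of the 374 members with 3 or more. Just outside, 337 nuclei with 1 UMI of Pdgfra and no other marker had 19547 CPM. For the neuronal ceiling, the 243 members at 2 UMIs of Snhg11 had 30570 CPM, and 160 nuclei left out at 3 UMIs had 31142 CPM. The ceiling left out 516 nuclei in all, at a median depth of 2984 UMIs and with the neuronal gene Syt1 at 734 CPM. The fibroblast ceiling left out 7 nuclei and the Enpp6 ceiling 6. The 7 members with 1 UMI of Dcn or Col1a2 had an identity level of 20176 CPM and 1026 CPM of the fibroblast gene Cped1.

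**Figure D2:**
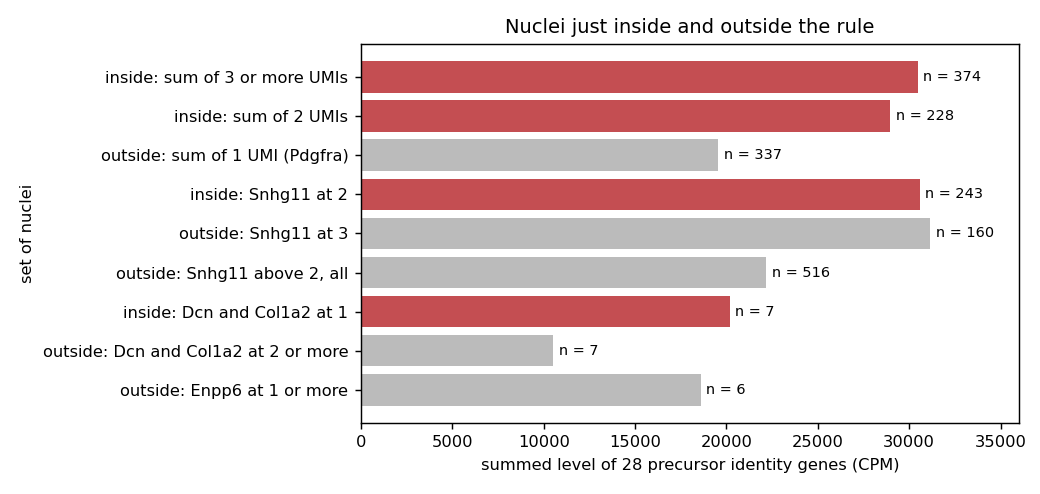
Summed level of the 28 precursor identity genes (CPM) in sets of nuclei just inside the rule (red) and just outside it (grey), with the number of nuclei beside each bar. Nuclei left out with 3 UMIs of Snhg11 had 31142 CPM, as high as the members at 2 UMIs, while those with a single UMI of Pdgfra had 19547 CPM.

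Cycling precursors were rare in the hypothalamus at this depth. A member was counted as cycling when it held UMIs of at least 3 of 28 genes of DNA replication and mitosis. This gave 1 member in ImP 3, 3 in ImP 4, 1 in vehicle 1 and 2 in vehicle 2, or 7 of 602 (1.16%, exact 95% interval 0.469 to 2.38%). No mature oligodendrocyte-like nucleus of 1566 met the rule, which allows a share of up to 0.192%. Neuron-like nuclei, which do not divide, met it in 286 of 36366 cases (0.786%) at their greater depth. With all nuclei thinned to 1500 UMIs the shares were 3 of 470 members (0.638%, interval 0.132 to 1.85%) and 9 of 35724 neuron-like nuclei (0.0252%). No phase or division rate is read from these calls alone, and the part of free RNA in them was not tested.

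Most of the cycling members rested on a few molecules. The clearest was a nucleus of ImP 4 with 10 of the 28 genes, among them 5 UMIs of Top2a, the topoisomerase that untangles replicated DNA, together with Kif11, Kif15, Kif23, Knl1, Ect2, Nusap1, Diaph3, Ckap2l and Esco2. It also held 15 of the 28 identity genes. A nucleus of vehicle 1 held 7 cycling genes, with 3 UMIs of Top2a, and 19 identity genes. Another of ImP 4 held 5 cycling genes with 1 UMI of Top2a. The remaining 4 held 3 or 4 cycling genes and no UMI of Top2a or Mki67. Both vehicle 2 nuclei, and the ImP 4 nucleus with Kif11 and Melk, reached 3 genes only with Diaph3. In many other members of each library, Diaph3 was the only cycling gene with a UMI. Over all members, Top2a had 10 UMIs in 4 nuclei, 3 of ImP 4 and 1 of vehicle 1, and Mki67, the proliferation antigen, had 5 UMIs in 5 nuclei, 1 of ImP 3 and 4 of vehicle 1. A UMI of Top2a was thus found in 0.664% of members against 0.0742% of neuron-like nuclei, at median depths of 2100 and 3986 UMIs.

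Among 27 brakes on division and progenitor regulators, 25 were detected in the members, as were 25 of the 28 cycling genes. Of the 27, 8 were more than 3-fold higher in the members than in all other nuclei. Zfp36l1, an RNA-binding protein that destabilises messenger RNA, was at 204 and 290 CPM in ImP and 219 and 241 CPM in vehicle, against 14.5 CPM elsewhere. The Notch target Hes5 was at 134 and 97.7 CPM in ImP and 112 and 112 CPM in vehicle, against 14.5 CPM elsewhere. The cyclin gene Ccnd1 was at 48.2 and 31.5 CPM in ImP and 54.8 and 19.8 CPM in vehicle, and its groups overlapped. The inhibitor genes Cdkn2a and Cdkn2c had no UMI in any member.

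The first comparison of the treatment asked whether ImP altered how many precursors were captured. The members made up 1.23% of passing nuclei in ImP 3 and 0.935% in ImP 4, against 1.30% in vehicle 1 and 1.01% in vehicle 2. The groups overlapped, with means of 1.08 ± 0.211% in ImP and 1.15 ± 0.209% in vehicle (SD, n = 2 each). The difference was -0.0693 percentage points (exact two-sided permutation p = 0.667, where 0.333 is the smallest p that 2 against 2 libraries can give). The sign changed when ImP 4 was left out (0.0800 points) or vehicle 1 was left out (0.0782 points). Library names begin with 111 for ImP 3 and vehicle 1 and with 113 for ImP 4 and vehicle 2, a prefix whose meaning is not given, and within each prefix the ImP library had the lower share. Of the nuclei with at most 2 UMIs of Snhg11, the members were 5.64 and 4.52% in ImP and 5.98 and 5.01% in vehicle. The share of cycling members was 0.549 and 2.04% in ImP and 0.704 and 1.53% in vehicle, a difference of 0.180 points (exact permutation p = 1), and with 7 cycling members no difference was detectable at this depth. Within prefix 111 the ImP library had the lower share of cycling members, and within prefix 113 the higher one.

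**Figure D3:**
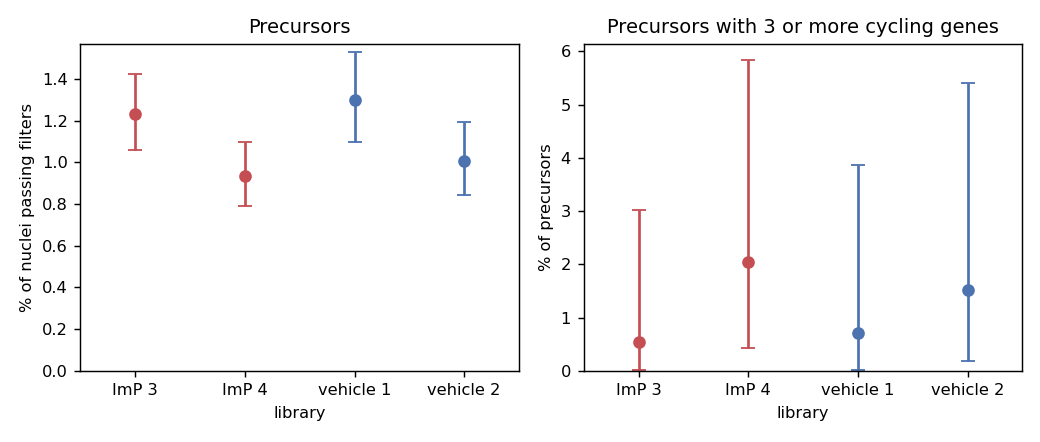
Share of precursors among nuclei passing the limits (left) and share of precursors with 3 or more cycling genes (right) in each library, in percent. Points are the measured shares and bars are exact 95% binomial intervals, which cover counting error only; ImP libraries are red and vehicle libraries blue. The groups overlap in both panels.

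The second comparison asked which genes differed between ImP and vehicle in the members, with UMIs summed per library and tested by edgeR. Of 6379 genes tested, 23 rose in ImP and 0 fell at an adjusted p under 0.05, or 0.361% and 0% of those tested. Of all genes tested, 19.5% had higher levels in both ImP than in either vehicle library, and 19.8% had lower levels in both. Unadjusted p-values under 0.05 were found for 630 genes in both directions together, and DESeq2 called 1 gene, Ptgds, which rose. The number of calls rested on single libraries, with 73 without ImP 3, 2 without ImP 4 (Ptgds and Fth1), 4 without vehicle 1 (Cga, Gh, Pomc and Prl) and 0 without vehicle 2. A fit with the library name prefix as a block called 81 genes (78 higher, 3 lower), while 1 gene, Ptgds, was called with possible doublets left out and 0 genes among nuclei with at least 1000 genes. None of the 23 genes changed sign in any alternative fit.

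Ptgds, which encodes the prostaglandin D2 synthase and is abundant in oligodendrocytes and meninges, had the most stable call. It was at 536 CPM in ImP 3 and 592 CPM in ImP 4, against 145 CPM in vehicle 1 and 260 CPM in vehicle 2, from 200, 188, 53 and 79 UMIs. Both ImP libraries lay above both vehicle libraries. The log2 ratio was 1.48 (SE 0.21, adjusted p = 0.000142 by edgeR), and it passed in 11 of 14 alternatives, with an adjusted p between 9.26e-13 and 0.0843 over these alternatives. In all other nuclei Ptgds was at 286 and 450 CPM in ImP and 134 and 195 CPM in vehicle, a log2 ratio of means of 1.16. In mature oligodendrocyte-like nuclei its log2 ratio was 0.52 (adjusted p = 0.454 by edgeR). Without the 12 members with fibroblast markers or few identity genes, a setting chosen after seeing the data, the log2 ratio of Ptgds in members was 1.36 (adjusted p = 0.00207).

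Among the 23 genes that rose, Oxt, Avp, Hcrt, Gh and Pomc encode precursors of secreted peptides or hormones, a grouping made after the calls were seen. Oxt, the oxytocin precursor, was at 437 and 567 CPM in ImP and 233 and 316 CPM in vehicle (log2 ratio 0.86, adjusted p = 0.0293 by edgeR). Avp, the vasopressin precursor, was at 447 and 687 CPM in ImP and 255 and 353 CPM in vehicle, and Hcrt, the orexin precursor, at 238 and 268 CPM in ImP and 104 and 129 CPM in vehicle. For all 3 the libraries of the groups did not overlap. Gh, growth hormone, was at 37.5 CPM in ImP 3 and 2136 CPM in ImP 4, against 13.7 and 6.59 CPM in vehicle, and Pomc, the melanocortin precursor, at 61.6 and 334 CPM in ImP against 24.6 and 29.7 CPM in vehicle. Gh and Pomc are among the 9 pituitary genes whose summed level set ImP 4 apart, so their level there is no separate observation. Without ImP 4 the log2 ratios of Gh and Pomc were 1.81 and 1.18, against 6.62 and 2.80 with all libraries. Also called were Pcsk1n, an inhibitor of a prohormone convertase (log2 ratio 0.96), Resp18 (1.09) and Caly (1.17).

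Of the other called genes, in the respiratory chain Atp5h rose by 1.29, Cox8a by 1.07 and Cox4i1 by 0.93 on the log2 scale. Cst3, the protease inhibitor cystatin C, was at 980 and 1096 CPM in ImP and 498 and 653 CPM in vehicle, and Fth1, the ferritin heavy chain, at 1331 and 1134 CPM in ImP and 649 and 807 CPM in vehicle. Neither gene's groups overlapped, and the log2 ratios were 0.84 and 0.75. The proton pump genes Atp6v0c (0.81) and Atp6ap2 (1.03), the lysosomal and vesicle membrane gene Cd63 (1.19) and the microtubule regulator Stmn3 (0.99) rose too. So did Nenf, a secreted neurotrophic factor (1.57), the chaperone gene Hsp90ab1 (0.89), Selenok, a selenoprotein of the endoplasmic reticulum (0.94), and the ribosomal gene Rpl36 (1.40).

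The level of the 23 genes in the members was close to that in all other nuclei. The ratio of members to other nuclei lay between 0.836 and 1.70, with a median of 1.17, while the precursor identity genes had a median ratio of 7.14. In all other nuclei the 23 genes also had a higher mean in ImP, with log2 ratios of 0.31 to 5.98. For 22 of the 23 the log2 ratio in members was above that in all other nuclei, a difference that was not tested. The 23 genes were chosen by their ratio in members, which favours such a count, so the count supports nothing. The ratios in members came from the edgeR fit and those in other nuclei from mean CPM. The part of free RNA and of the lower depth of the ImP members in these rises was not tested. With each member thinned to 1500 UMIs and shallower members left out, 17 genes were called, of which 14 were among the 23, and 8 of the 23 no longer passed.

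**Figure D4:**
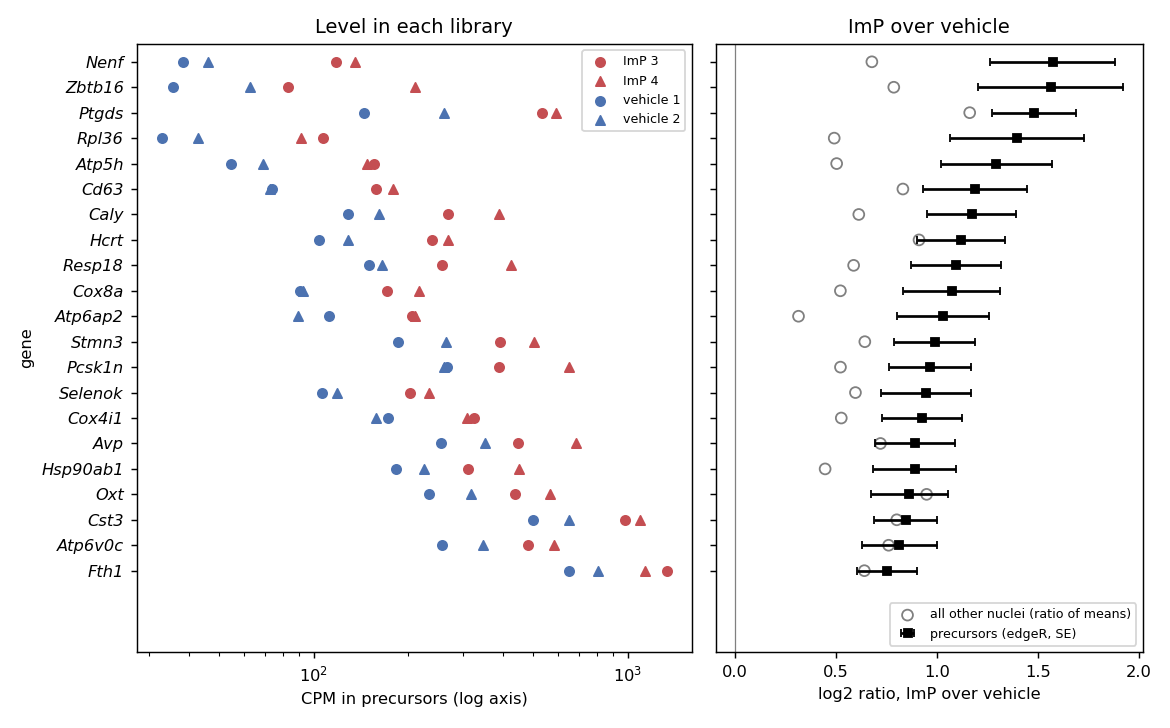
Left, level (CPM, log axis) of 21 of the 23 genes that rose in ImP, in the precursors of each library, with ImP in red and vehicle in blue. Right, log2 ratio of ImP over vehicle in precursors (squares, with the standard error) and in all other nuclei (open circles). Gh and Pomc, with log2 ratios of 6.62 and 2.80 in precursors, are left out to keep the scale readable, and every open circle lies above 0.

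Genes that mark precursors did not pass the test in either direction. Of the 28 identity genes 0 were called (edgeR), 4 had an unadjusted p under 0.05, and the median log2 ratio was -0.14, against -0.01 over all genes tested. By library their summed level was 28903 and 26887 CPM in ImP and 31572 and 32451 CPM in vehicle, with both ImP libraries lower. Both ImP libraries lay below both vehicle libraries for 11 of the 28 (39.3%, against 19.8% of all genes tested) and above for 4 (14.3%, against 19.5%). Lhfpl3, a tetraspan membrane protein gene, had the smallest p of all genes with a lower level in ImP, at 3841 and 3280 CPM in ImP and 4789 and 4597 CPM in vehicle (log2 ratio -0.41, SE 0.10, adjusted p = 0.0613 by edgeR). Lhfpl3 passed in 2 of 14 alternatives. The first had no minimum count (log2 ratio -0.41, adjusted p = 0.000821 by edgeR). The other left out ImP 3, a fit with 1 ImP library assumed to vary like the vehicle libraries. Its log2 ratio was -0.54 without ImP 3, -0.29 without ImP 4, -0.40 without vehicle 1 and -0.41 without vehicle 2. Pcdh15, a protocadherin gene, had a log2 ratio of -0.28, Sox5 of -0.37 and Xylt1 of -0.29, with adjusted p between 0.290 and 0.430. In the wider set of 320 tested genes that were more than 3-fold higher in the members than elsewhere, 0 were called, the median was -0.14, and 33.4% had both ImP libraries below both vehicle libraries, against 19.8% of all genes tested.

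The other 5 named genes with lower levels in ImP did not pass either. Tes, a focal adhesion gene, was at 158 and 142 CPM in ImP and 277 and 241 CPM in vehicle (log2 ratio -0.79, adjusted p = 0.0740 by edgeR). Dab2, an endocytic adaptor 7.42-fold higher in members than elsewhere, was at 45.5 and 47.3 CPM in ImP and 87.6 and 102 CPM in vehicle (-1.03, adjusted p = 0.175). Cntnap5b (-1.41), Adamts10 (-2.06) and Gm15584 (-0.69) had adjusted p between 0.128 and 0.175.

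Groups of housekeeping genes lay higher in the ImP members, although few of their genes passed. Over all genes tested, 0.361% rose and 48.7% had a positive log2 ratio. Of 77 tested ribosomal protein genes 1 rose, 74 had a positive log2 ratio, and 54, or 70.1%, were higher in both ImP than in either vehicle library (median log2 ratio 0.56), against 19.5% of all genes tested. Their summed level was 12420 and 11468 CPM in ImP and 7179 and 9115 CPM in vehicle. Of 65 tested nuclear-encoded respiratory chain genes 3 rose and 40, or 61.5%, had both ImP libraries higher (median 0.58), again beside 19.5% of all genes tested. None of the 12 mitochondrially encoded genes was called or had groups that did not overlap (median 0.14, 1 unadjusted p under 0.05). Cox7a2 was at 123 and 107 CPM in ImP and 43.8 and 52.7 CPM in vehicle (adjusted p = 0.0556), and Rpl19 at 228 and 233 CPM in ImP and 120 and 129 CPM in vehicle (adjusted p = 0.0556 by edgeR). Of 15 tested chaperone and stress genes 1 rose, all 15 had a positive log2 ratio, and the median was 0.65 (0.32 without ImP 4). Depth moved with these groups, as the members of both ImP libraries held fewer UMIs. With members thinned to 1500 UMIs, the medians were 0.52 for ribosomal, 0.61 for respiratory chain and 0.74 for chaperone and stress genes. The part of depth was not tested.

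Genes that respond to glucocorticoids gave 1 call among the 10 tested. Zbtb16, a zinc finger factor induced by steroid hormones, was at 83.0 CPM in ImP 3 and 211 CPM in ImP 4, against 35.6 and 62.6 CPM in vehicle (log2 ratio 1.56, SE 0.36, adjusted p = 0.0362 by edgeR). It was highest in ImP 4, and without that library the log2 ratio was 0.79. Zbtb16 passed in 4 of 14 alternatives. By edgeR it did not pass with members thinned to 1500 UMIs (adjusted p = 0.0817) or without nuclei with fibroblast markers (adjusted p = 0.0537). Fkbp5, a co-chaperone of the glucocorticoid receptor, was at 80.4 and 148 CPM in ImP and 49.3 and 49.4 CPM in vehicle. Its log2 ratio was 1.17 (adjusted p = 0.123 by edgeR), with 0.70 without ImP 4 and 1.56 without ImP 3. By edgeR it passed with members thinned to 1500 UMIs (1.77, adjusted p = 0.0192) and with the prefix block (1.15, adjusted p = 0.0281). With nuclei with fibroblast markers left out it did not pass (0.89, adjusted p = 0.342 by edgeR), nor did it in most other alternatives. Tsc22d3, known as GILZ, was at 45.5 and 63.0 CPM in ImP and 5.48 and 29.7 CPM in vehicle (1.67, adjusted p = 0.175 by edgeR). Its log2 ratio was 0.82 without vehicle 1 and 3.22 without vehicle 2. It passed with the prefix block (1.675, adjusted p = 0.0375 by edgeR) and in no other alternative. The median of the list was 0.64, with 0.38 without ImP 4, 1.05 without vehicle 2 and 0.35 with members thinned to 1500 UMIs. For 6 of the 10 both ImP libraries were higher, beside 19.5% of all genes tested. The receptor gene Nr3c1 itself was at 177 and 167 CPM in ImP and 159 and 194 CPM in vehicle, with overlapping groups.

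Myelin genes, ion channels and the proposed ImP targets gave no call by edgeR. Of 16 tested myelin genes 0 were called and 7 had an unadjusted p under 0.05, beside 630 of all 6379 genes tested. Both ImP libraries were higher for 9 of the 16 (56.25%, against 19.5% of all genes tested). The median log2 ratio was 0.51, and 0.29 with members thinned to 1500 UMIs. Mobp was at 93.8 and 107 CPM in ImP and 54.8 and 42.8 CPM in vehicle (1.01, adjusted p = 0.174), and Mbp at 372 and 419 CPM in ImP and 271 and 297 CPM in vehicle (0.47, adjusted p = 0.363). The list of mature oligodendrocyte markers shares genes with the myelin list, so it is not a separate measure. Those markers summed to 1318 and 1383 CPM in ImP and 934 and 949 CPM in vehicle. Their median log2 ratio was 0.90, and 0.44 with members thinned to 1500 UMIs. The part of these markers in the myelin levels was not tested. Of 22 tested ion channel genes 0 were called, 7 had an unadjusted p under 0.05, the median was -0.27 and 13 (59.1%, against 19.8% of all genes tested) had both ImP libraries below both vehicle libraries. Among 17 tested genes of the p38, p62, mTORC1 and AMPK pathways, through which ImP is known to act on insulin signalling in liver, 0 were called and 1 had an unadjusted p under 0.05. That gene was Mtor, the kinase of mTORC1, at 32.1 and 18.9 CPM in ImP and 52.0 and 52.7 CPM in vehicle (-1.01, adjusted p = 0.405). Mapk12 had no UMI in any member. No gene of the lists for the growth factor and guidance receptors (22 tested), the glutamate and GABA receptors (28 tested), the committed precursor genes (13 tested) or the proteoglycans and matrix (13 tested) was called, with 2, 4, 0 and 1 unadjusted p under 0.05. DESeq2 called none of the genes in these lists either.

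**Figure D5:**
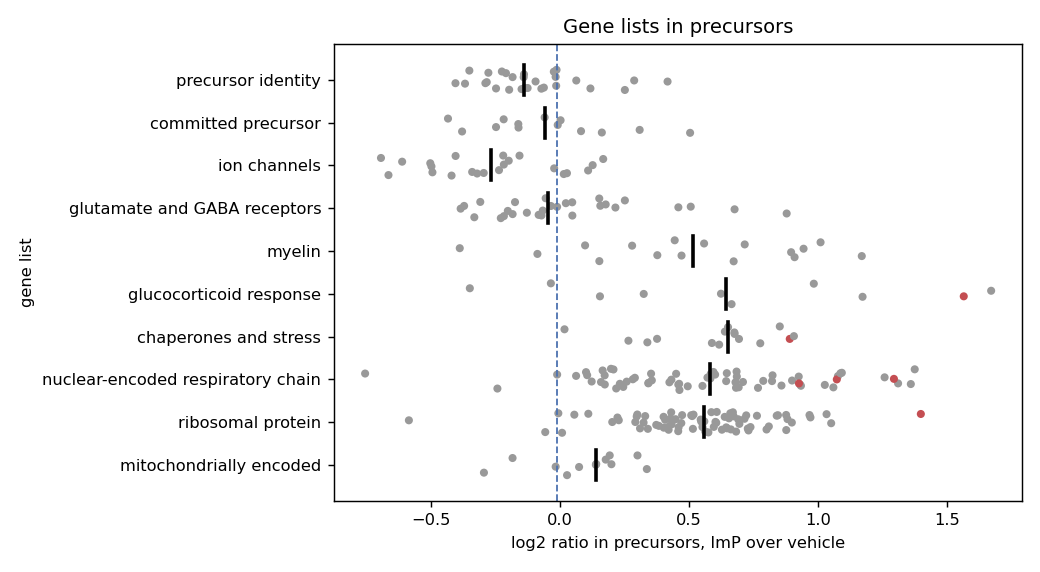
Log2 ratio of ImP over vehicle in precursors for each tested gene of 10 lists (points; red for adjusted p under 0.05 by edgeR, grey otherwise), with the median of each list as a black bar and the median of all tested genes as a dashed line. The ribosomal and nuclear-encoded respiratory chain genes centre at 0.56 and 0.58, and the identity genes and ion channels at -0.14 and -0.27.

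Whether the response of the members differed from that of mature oligodendrocyte-like nuclei was tested gene by gene as an interaction term in a model blocked on library. Of 8509 genes tested 0 passed by edgeR and 0 by DESeq2, and 460 had an unadjusted p under 0.05. The smallest adjusted p belonged to Nebl, a gene of the actin cytoskeleton (difference of log2 ratios -1.61, adjusted p = 0.0825). Ptgds had a difference of 1.03 (SE 0.24, adjusted p = 0.263), so its rise was not shown to differ between the classes. In mature oligodendrocyte-like nuclei alone 1 of 8355 genes was called (0.012%), Gh. For 21 of the 23 genes that rose in the members the difference was positive, and no adjusted p by edgeR was under 0.263. These genes were chosen by their rise in the members, which favours a positive difference, so the count supports nothing. Over all 8509 genes the median difference was 0.02.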

How the data were processed

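Single-nucleus RNA was counted in 4 libraries, with whole-number UMI counts per gene and nucleus deposited by the authors. The submitters' processing notes name Cell Ranger 8.0.1, Seurat 5.0.0 and the GRCm39 build. The files hold 33696 genes and between 48060194 and 51945297 UMIs per library. Here counts of the members were summed per library and tested with edgeR 4.0.16 (quasi-likelihood fit, TMM scaling, minimum count 10, Benjamini-Hochberg threshold 0.05, 2 residual degrees of freedom) in R 4.3.3, with DESeq2 1.42.0 as an alternative. Levels in the text are CPM of these sums. Intervals of shares are Clopper-Pearson, a count of 0 is read as allowing up to 3 counts, and shares were compared between groups by exact permutation. The members and gene lists were chosen with earlier results of these data known. The rule for named genes took the 12 rising genes and the 6 lower genes with the smallest p at 20 CPM or more, the 25 genes of largest ratio to other nuclei, and listed genes; the other 11 rising genes were named after their values were seen. Alternatives covered scaling, count minimum, rule, depth, doublets, prefix and each library. Counts for the ImP comparison (5929 genes) were simulated with the same spread (dispersion 0.0110) for every gene and library. On these counts edgeR recovered 26 of 100 genes changed by a log2 ratio of 1 and 90 of 100 changed by 2, with 4 false calls. Spread particular to a gene or library was not simulated, so these figures may not hold for the measured counts. How many calls in the measured counts are false was not tested.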

Additional observations from a re-analysis of the deposited data

How the results depend on the processing

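Against 23 called genes, an unfiltered table gave 44, DESeq2 1, the prefix block 81, a marker sum of at least 3 UMIs 1, possible doublets left out 1 and at least 1000 genes 0. Leaving out single libraries gave 0 to 73. Other scalings, thinning and the removal of nuclei with fibroblast markers, the last chosen after seeing the data, gave 17 to 23. The interaction with mature oligodendrocyte-like nuclei, 0 genes, gave 13 without a count minimum, 4 after thinning and 0 to 7 without single libraries. The difference in precursor share ran from -0.218 to 0.0800 points without single libraries, with the sign reversed without ImP 4 (0.0800) and without vehicle 1 (0.0782). The difference in cycling share, 0.180 points, became -1.43 with 2 genes needed and -0.465 for Mki67 or Top2a. It ran from -0.566 (without ImP 4) to 0.925 without single libraries, and was -0.232 without vehicle 1. For single genes, 394 values kept their side of the threshold, 171 no longer passed, 10 newly passed and 0 reversed. The 394 include named genes that were not called and so had no call to lose. All 171 belonged to the 23 called genes, which passed in 4 to 11 alternatives each (median 7, of up to 14). The cause of these shifts was not tested. The labels give the groups no shared replicate numbers, so the only paired fit was the one blocked on the prefix. The shares of cycling members rest on 7 of 602 nuclei.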
